A study of Mus musculus with 8 samples.

Results

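The genes described here encode the chromatin remodelers of the CHD, ISWI, INO80 and NuRD families, with a few related SNF2 type proteins, and none of them belongs to the BAF complex. They were chosen by name, as remodelers other than BAF whose mRNA could be followed when BAF is lost, and all 37 of them were found among the 48709 genes in the count files. RNA from whole cortex at P1, postnatal day 1, was sequenced from 4 control and 4 dcKO_Nex-Cre samples, with 1 library per sample. Per the study's methods, the dcKO_Nex-Cre mice carry floxed BAF155 and BAF170 alleles, the genes *Smarcc1* and *Smarcc2*, together with Nex-Cre, and the control mice were heterozygous for both floxed alleles (BAF155fl/+, BAF170fl/+) and Cre negative. All animals were kept on a C57BL6/J background. The sample titles give control or mutant, the labels give the age, and the Cre line was taken from the study's text. Nex-Cre is active in postmitotic principal neurons of the cortex, so that interneurons, glia and most progenitors of the dissected tissue keep both genes. In bulk tissue, fewer cells of a type and less RNA per cell cannot be told apart. The labels do not say whether the samples came from separate animals, and p-values measure the spread between these samples.

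Chromatin remodelers use ATP to slide, evict or exchange nucleosomes, and they fall into families by their SNF2 type ATPase. CHD proteins join this ATPase to paired chromodomains, ISWI enzymes space nucleosomes with the help of large BAZ type partners, INO80 and SWR1 type enzymes handle the histone variant H2A.Z, and NuRD couples a Mi-2 ATPase to histone deacetylases. Several of these genes, among them *Chd7*, *Chd8* and *Atrx*, are known from human neurodevelopmental disorders, and in developing cortex CHD3, CHD4 and CHD5 are alternative ATPases of NuRD.

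The ATPases share a helicase core. Its motif II, the box that binds magnesium and ATP, is printed for most of the CHD and ISWI enzymes, without *Chd1*, *Chd7* and *Chd8*. It lets a reader see how close these paralogs are in a part that they share. This part is small beside the whole transcript and does not show how reads are assigned. Each run holds 36 bases of the coding strand, 5′ to 3′, and the 12 capitals are the codons of motif II.
Chd2: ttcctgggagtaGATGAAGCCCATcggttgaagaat
Chd6: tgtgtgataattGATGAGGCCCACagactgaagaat
Chd9: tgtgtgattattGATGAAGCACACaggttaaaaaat
Chd3: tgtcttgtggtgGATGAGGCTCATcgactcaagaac
Chd4: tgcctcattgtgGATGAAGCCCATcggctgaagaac
Chd5: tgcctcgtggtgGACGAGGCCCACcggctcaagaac
Smarca1: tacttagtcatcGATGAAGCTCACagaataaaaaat
Smarca5: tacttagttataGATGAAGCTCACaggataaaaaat

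All of these lie in coding exons of GENCODE M21 on GRCm38 (mm10). *Chd2* is at chr7:73490607-73490642 on the minus strand in exon 16 of 39, *Chd6* at chr2:161018068-161018103 on the minus strand in exon 13 of 37, and *Chd9* at chr8:90994559-90994594 on the plus strand in exon 14 of 40. *Chd3* is at chr11:69356950-69356985 on the minus strand in exon 16 of 40, *Chd4* at chr6:125108749-125108784 on the plus strand in exon 17 of 39, and *Chd5* at chr4:152370595-152370630 on the plus strand in exon 16 of 42. *Smarca1* is at chrX:47876397-47876432 and *Smarca5* at chr8:80726223-80726258, both on the minus strand in exon 7 of 24. The ISWI pair matched at 33 of 36 bases, whereas *Chd3* matched *Chd4* at 28 and *Chd5* at 30 of 36 bases. No run of 50 bases of *Chd3* was found in any other annotated gene, and under 1% of those of *Chd4* and *Chd5* were. No such run of *Smarca1* was found in another gene either, so that *Smarca1* and *Smarca5* share none.

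Total counts per library ranged from 17958641 to 35191912. Values are given as CPM, counts relative to library size after edgeR's TMM scaling, and levels of different genes are compared only as RPKM, the CPM per kilobase of exon. Control replicate 2 and dcKO_Nex-Cre replicate 4 stood apart from the other libraries. They held the highest share of mitochondrial counts, 6.87% and 6.15%, against 2.33% to 4.24% in the other 6 libraries. They also had the lowest total counts and lay far to the same side of the first principal component, at -0.59 and -0.44. On its other side, dcKO_Nex-Cre replicate 1 lay as far out, at 0.54. That library had the highest total counts and the lowest mitochondrial share, 2.33%. *Xist* exceeded the Y-linked *Ddx3y* in control replicate 2 and dcKO_Nex-Cre replicate 2, 1 library of each group. Control replicate 2 nevertheless held Y-linked counts, with *Ddx3y* at 4.21, *Eif2s3y* at 6.79 and *Kdm5d* at 4.76 CPM, against 0.268, 0.383 and 0.0766 CPM in dcKO_Nex-Cre replicate 2, while *Ddx3y* was at 55.1 to 81.6 CPM in the other 6 libraries. The source of these counts was not tested. The deleted genes were lower in the dcKO_Nex-Cre cortex, with *Smarcc2* at 56.9% and *Smarcc1* at 69.2% of the control level.

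None of the 37 remodelers passed an adjusted p of 0.05 in edgeR's quasi-likelihood test with Benjamini-Hochberg adjustment over the 16287 genes tested, where 0.884% of all genes did. DESeq2's Wald test and limma-voom called none either, where they called 3.03% and 0.792% of all genes. All 37 genes passed the filter on low counts, and the smallest adjusted p from edgeR was 0.212, for *Chd6*. Small positive differences prevailed, since 31 of 37 genes (83.8%) had a log2 fold change above 0 against 50.9% of all genes tested. The median log2 fold change of the remodelers was 0.11, and that of all genes tested was 0.0043. The values ran from -0.21 for *Hdac1* to 0.22 for *Bptf*. At an unadjusted p under 0.05 there were 4 remodelers, *Chd2*, *Chd6*, *Baz1b* and *Rsf1*, all higher in the dcKO_Nex-Cre cortex. This is 10.8% of the remodelers, against a background of 13.6% of all genes in either direction and 6.59% of all genes on the higher side. The 95% interval of the log2 fold change lay within 0.5 of 0, or 1.41-fold, for 36 of 37 remodelers, the exception being *Hdac1*, and within 0.3 for 15 of 37.

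**Figure D1:**
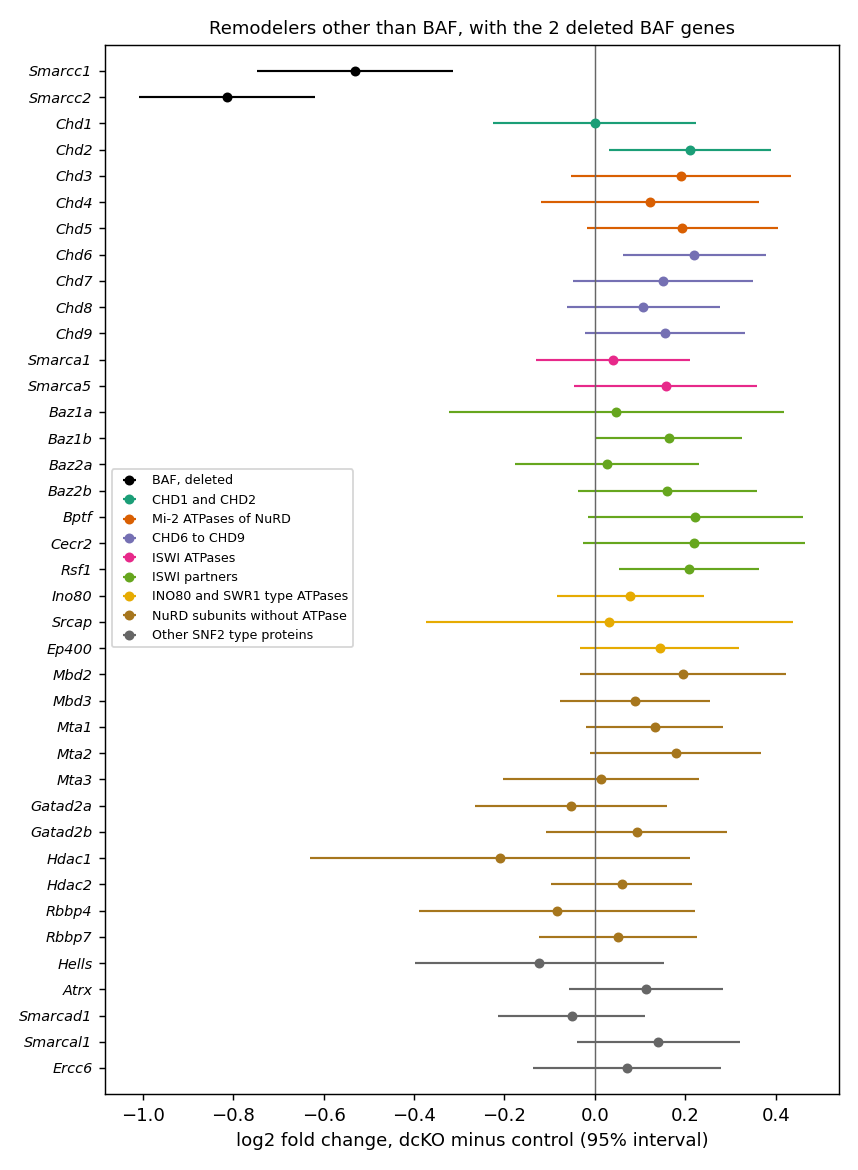
Log2 fold change of each remodeler, dcKO_Nex-Cre minus control, from edgeR with 4 libraries per group, coloured by role; points are estimates and bars are 95% intervals, and the deleted genes Smarcc1 and Smarcc2 are drawn in black at the top. The remodelers lie between -0.21 and 0.22, to the right of the deleted genes at -0.53 and -0.81.

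Of the 9 CHD genes, 8 had log2 fold changes above 0, and none passed the adjusted threshold. *Chd6* (ENSMUSG00000057133, chromosome 2, 160946978 to 161109075), a large CHD protein of the same subfamily as *Chd7* and *Chd8*, was at 102, 116, 106 and 100.2 CPM in control replicates 1 to 4 and at 129, 128, 122 and 116 CPM in dcKO_Nex-Cre replicates 1 to 4. All dcKO_Nex-Cre libraries but replicate 4 lay above every control library, and replicate 4 lay just under control replicate 2. The log2 fold change was 0.22 (standard error 0.07, unadjusted p = 0.0104, adjusted p = 0.212, edgeR), or 116% of the control level.

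*Chd2* (ENSMUSG00000078671, chromosome 7, 73426638 to 73541830), which acts with transcription and is mutated in an epileptic encephalopathy, was at 73.4, 82.6, 82.6 and 73.8 CPM in the control and at 99.4, 91.0, 89.7 and 81.3 CPM in the dcKO_Nex-Cre cortex. Again 3 of the 4 dcKO_Nex-Cre libraries exceeded all control libraries, while replicate 4 fell among the control libraries. The log2 fold change was 0.21 (standard error 0.08, unadjusted p = 0.0248, adjusted p = 0.287, edgeR). The *Chd2* exons overlap those of the noncoding 1810026B05Rik on the same strand, and 18% of its runs of 50 bases occur in another gene, so that reads there could be split. Its relative *Chd1*, which travels with elongating RNA polymerase, had 83.4, 91.2, 80.1 and 78.5 CPM in the control and 73.8, 78.7, 79.4 and 102 CPM in the dcKO_Nex-Cre cortex. The highest value of *Chd1* came from dcKO_Nex-Cre replicate 4 and the next from control replicate 2, and the groups overlapped throughout, with a log2 fold change of -0.000049.

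*Chd7*, *Chd8* and *Chd9* had log2 fold changes of 0.15, 0.11 and 0.16. *Chd8*, which binds beta-catenin and is a recurrent autism gene, was at 146, 154, 159 and 141 CPM in the control and at 173, 163, 164 and 145 CPM in the dcKO_Nex-Cre cortex. Only dcKO_Nex-Cre replicate 4 of *Chd8* lay within the control range (adjusted p = 0.549, edgeR). *Chd9* was at 65.6, 77.2, 71.3 and 62.3 CPM in the control and at 80.5, 75.2, 78.4 and 73.4 CPM in the dcKO_Nex-Cre cortex, where control replicate 2 alone reached into the dcKO_Nex-Cre range. *Chd7*, the CHARGE syndrome gene, ranged from 35.5 to 38.0 CPM in the control and from 36.4 to 47.4 CPM in the dcKO_Nex-Cre cortex, its highest value being in replicate 2.

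The Mi-2 ATPases of NuRD were abundant and lay above the control on average. *Chd3* had the highest level per length of all remodelers, 70.1 ± 7.03 RPKM (SD, n = 4) in the control, ahead of *Chd4* at 29.4 ± 2.11 RPKM (SD, n = 4) and *Chd5*, an ATPase of postmitotic neurons, at 21.4 ± 1.94 RPKM (SD, n = 4). *Chd3* was at 557, 671, 601 and 537 CPM in the control and at 773, 706, 659 and 559.9 CPM in the dcKO_Nex-Cre cortex. In this gene too, dcKO_Nex-Cre replicate 4 was the lowest of its group and control replicate 2 the highest of its own, and the groups overlapped (log2 fold change 0.19, standard error 0.11, adjusted p = 0.469, edgeR). *Chd4* was at 238, 228, 259 and 219.6 CPM in the control and at 273, 279, 275 and 200.7 CPM in the dcKO_Nex-Cre cortex, so that 3 libraries lay above all of the control and replicate 4 below all of it. *Chd5* was at 191, 232, 196 and 201 CPM in the control and at 263, 208, 221 and 246 CPM in the dcKO_Nex-Cre cortex. Its groups overlapped through control replicate 2 only, and the log2 fold change was 0.19 (adjusted p = 0.399, edgeR). The ratio of *Chd3* to *Chd4* per length was 2.39 ± 0.28 (SD, n = 4) in the control and 2.51 ± 0.2 (SD, n = 4) in the dcKO_Nex-Cre cortex, a difference within the spread of the libraries (exact permutation on the log2 ratio, two-sided, p = 0.486).

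**Figure D2:**
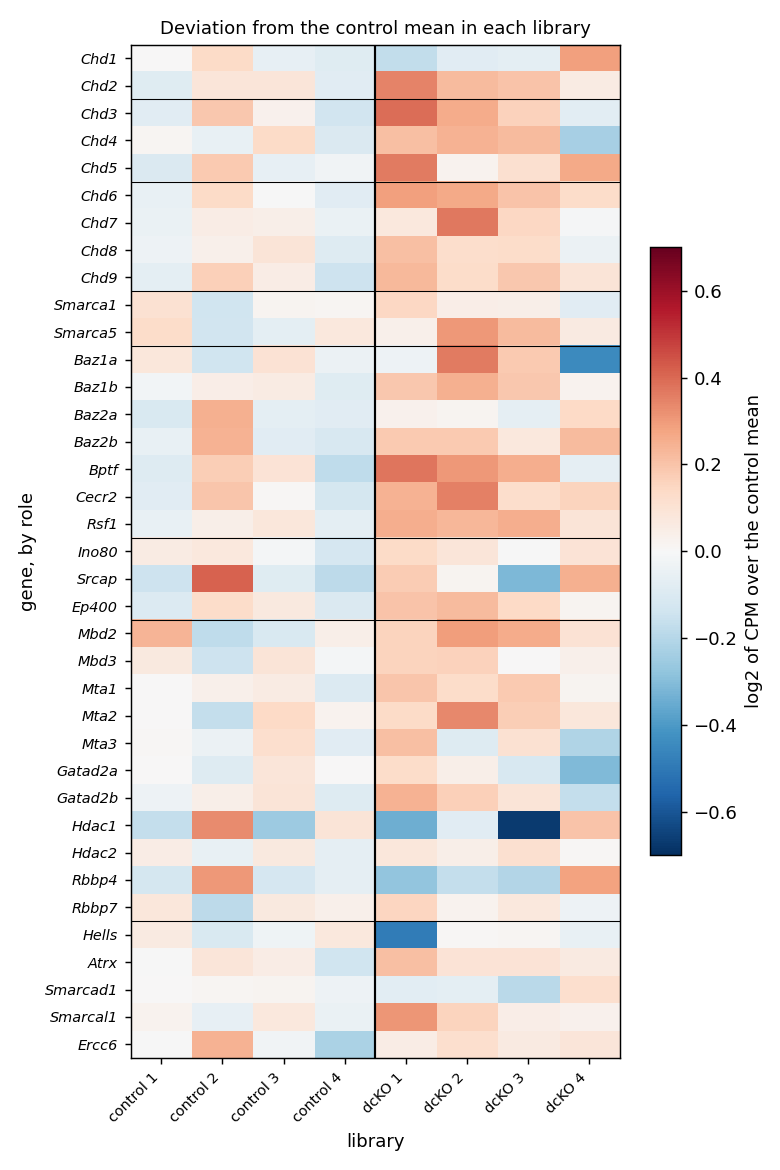
Log2 of the CPM over the control mean for the 37 remodelers (vertical axis, ordered by role, horizontal lines between roles) in each of the 8 libraries (horizontal axis, control left and dcKO_Nex-Cre right of the thick line); red is above and blue below the control mean. The median over the remodelers is 0.18, 0.13 and 0.11 in dcKO_Nex-Cre replicates 1 to 3 and 0.060 in replicate 4.

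Both ISWI ATPases had positive values that did not pass the test, *Smarca5* at 111% and *Smarca1* at 103% of the control level. *Smarca5*, the SNF2H enzyme of dividing cells and progenitors, was at 36.5, 30.4, 31.8 and 35.1 CPM in the control and at 34.1, 41.2, 38.9 and 34.8 CPM in the mutant cortex (log2 fold change 0.16, overlapping groups, adjusted p = 0.472, edgeR). *Smarca1*, the SNF2L enzyme of differentiating neurons, was at 82.2, 69.5, 77.6 and 77.0 CPM in the control and at 84.7, 79.0, 78.5 and 72.4 CPM in the mutant cortex, a log2 fold change of 0.04. Control replicate 2 and dcKO_Nex-Cre replicate 4 were the lowest libraries of *Smarca1*. Per length, *Smarca1* exceeded *Smarca5* by 2.92 ± 0.13 fold (SD, n = 4) in the control and by 2.7 ± 0.31 fold (SD, n = 4) in the dcKO_Nex-Cre cortex (exact permutation test, p = 0.257).

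All 7 ISWI partners had positive log2 fold changes, from 0.03 for *Baz2a* to 0.22 for *Bptf*, and 2 of them had an unadjusted p under 0.05. *Rsf1* (ENSMUSG00000035623, chromosome 7, 97579889 to 97692778), the partner of SNF2H in the remodeling and spacing factor, was at 77.2, 82.4, 84.5 and 76.5 CPM in the control and at 95.6, 94.0, 95.5 and 85.3 CPM in the dcKO_Nex-Cre cortex. It was the only remodeler, 1 of 37, whose groups did not overlap, where 8% of all genes tested had groups without overlap. Its lowest dcKO_Nex-Cre library, replicate 4, exceeded the highest control library by under 1 CPM. The log2 fold change was 0.21 (standard error 0.07, unadjusted p = 0.0127, adjusted p = 0.225, edgeR), and the exact permutation test gave p = 0.0286, the lowest value that groups of 4 can reach.

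*Baz1b* (ENSMUSG00000002748, chromosome 5, 135187264 to 135246129), the Williams syndrome transcription factor, was at 148, 155, 156 and 142 CPM in the control and at 171, 178, 172 and 153 CPM in the dcKO_Nex-Cre cortex. Replicate 4 again was the one dcKO_Nex-Cre library inside the control range (log2 fold change 0.16, standard error 0.07, unadjusted p = 0.0466, adjusted p = 0.357, edgeR). *Bptf*, the large subunit of NURF that reads methylated histone H3, was at 123, 147, 139 and 115 CPM in the control and at 169, 161, 156 and 125 CPM in the dcKO_Nex-Cre cortex. It had the largest log2 fold change of the remodelers, 0.22 (standard error 0.11, adjusted p = 0.392, edgeR), but its replicate 4 lay below 2 control libraries. *Cecr2*, a low gene linked to neural tube closure, was at 9.25, 11.2, 9.85 and 8.99 CPM in the control and at 11.6, 12.5, 10.6 and 10.9 CPM in the dcKO_Nex-Cre cortex, and only control replicate 2 reached the mutant range. *Baz1a*, at 5.97 to 7.05 CPM in the control and 4.83 to 8.47 CPM in the dcKO_Nex-Cre cortex, varied more within the mutant group than between groups.

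*Baz2a*, a partner of SNF2H at silent ribosomal genes, and its paralog *Baz2b* were the one pair of paralogs, of 14, whose ratio did not overlap between the groups. *Baz2a* was at 56.7, 72.6, 58.3 and 57.8 CPM in the control and at 62.4, 61.9, 58.4 and 67.2 CPM in the dcKO_Nex-Cre cortex. *Baz2b* was at 44.8, 55.0, 44.0 and 43.1 CPM in the control and at 52.9, 52.8, 49.0 and 54.1 CPM in the dcKO_Nex-Cre cortex. In both genes control replicate 2 was the highest of the 8 libraries, so that their ratio was steadier than either gene. The ratio of *Baz2a* to *Baz2b* per length was 2.08, 2.17, 2.18 and 2.2 in the control and 1.94, 1.93, 1.96 and 2.04 in the dcKO_Nex-Cre cortex, and all 4 mutant libraries lay below all 4 control libraries. The log2 ratio differed by -0.13 (exact permutation, two-sided, p = 0.0286, the lowest that can be reached, 0.4 after Benjamini-Hochberg adjustment over the 14 pairs), and without control replicate 4 or without dcKO_Nex-Cre replicate 2 the exact permutation p was 0.0571. No other pair had a p under 0.05, and the next was *Gatad2a* over *Gatad2b*, with a difference of -0.15 and p = 0.0571 by exact permutation. After the adjustment no pair passed. The levels of both genes overlapped between the groups with all 8 libraries, with log2 fold changes of 0.03 for *Baz2a* and 0.16 for *Baz2b*.

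The INO80 and SWR1 type ATPases did not pass the test. *Ep400*, the ATPase of the TIP60 complex, was at 133, 155, 149 and 132 CPM in the control and at 163, 166, 156 and 144 CPM in the dcKO_Nex-Cre cortex, where replicate 4 alone lay within the control range (log2 fold change 0.14, adjusted p = 0.450, edgeR). *Ino80* was at 42.5, 43.0, 40.5 and 37.6 CPM in the control and at 44.8, 43.3, 40.9 and 43.7 CPM in the dcKO_Nex-Cre cortex, a log2 fold change of 0.08 with overlapping groups. *Srcap*, which deposits H2A.Z, was counted at 3.76, 5.53, 3.92 and 3.66 CPM in the control and at 4.70, 4.22, 3.34 and 4.94 CPM in the dcKO_Nex-Cre cortex, a log2 fold change of 0.03 with overlapping groups. Its level is uncertain, because 63.0% of its runs of 50 bases also lie in other genes, chiefly in the overlapping gene Gm42715 on the same strand, which had 2.29 to 3.89 CPM.

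Among the 11 NuRD subunits without ATPase activity, 8 had positive and 3 negative values, and none had an unadjusted p under 0.05. *Mbd2*, which binds methylated DNA, had the largest positive value, with 24.3, 18.2, 19.2 and 21.2 CPM in the control and 22.9, 25.2, 24.6 and 22.1 CPM in the dcKO_Nex-Cre cortex (log2 fold change 0.20, adjusted p = 0.423, edgeR). The highest control library of *Mbd2* exceeded 2 of the mutant libraries. *Mta2* (141, 125, 155 and 143 CPM against 154, 177, 158 and 148 CPM) and *Mta1* (121, 123, 125 and 112 CPM against 137, 132, 137 and 122 CPM), scaffold subunits that bind the deacetylases, had log2 fold changes of 0.18 and 0.13. Both overlapped between the groups. *Mta3*, a further scaffold subunit, had the smallest difference, at 46.2, 44.7, 49.8 and 43.5 CPM in the control and 53.3, 43.2, 49.4 and 39.7 CPM in the mutant cortex. Mutant libraries of *Mta3* lay within and on both sides of the control range, and its log2 fold change was 0.01 with a 95% interval from -0.20 to 0.23.

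*Hdac2*, the higher of the 2 deacetylases per length at 64.2 ± 3.05 RPKM (SD, n = 4) in the control, was at 297, 277, 301 and 274 CPM in the control and at 303, 295, 311 and 288 CPM in the dcKO_Nex-Cre cortex. The 8 values of *Hdac2* lay within a narrow band, and its 95% interval ran from -0.10 to 0.21 on the log2 scale. Its paralog *Hdac1*, at 3.07 ± 0.58 RPKM (SD, n = 4) in the control, was at 9.30, 13.1, 8.76 and 11.1 CPM in the control and at 8.26, 9.89, 6.56 and 12.01 CPM in the dcKO_Nex-Cre cortex. The log2 fold change of *Hdac1* was -0.21 with a 95% interval from -0.63 to 0.21 (adjusted p = 0.643, edgeR), the widest interval of the remodelers. The histone chaperone *Rbbp4* was at 386, 519, 388 and 403 CPM in the control and at 348, 375, 366 and 513 CPM in the dcKO_Nex-Cre cortex. Control replicate 2 and dcKO_Nex-Cre replicate 4 were far above the other 6 libraries of *Rbbp4*, and among those 6 every mutant library lay below every control library. *Rbbp7*, on the X chromosome, ranged from 134 to 161 CPM in the control and from 149 to 169 CPM in the dcKO_Nex-Cre cortex.

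Counts of *Hdac1* and *Smarca5* are less certain than those of most members, because processed pseudogenes carry long identical runs. Of the 50-base runs of *Hdac1*, 35.5% occur in another gene, and 31.7% in the pseudogene Gm10093 on chromosome 17. Of those of *Smarca5*, 28.2% do, mostly in 6 pseudogenes on chromosome 4. These runs, 50 bases of the sense strand in lower case throughout, show 1 run for each that is identical in the gene and its pseudogene.
Hdac1 and Gm10093: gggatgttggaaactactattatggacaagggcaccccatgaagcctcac
Smarca5 and Smarca5-ps: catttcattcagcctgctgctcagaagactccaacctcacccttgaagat

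The *Hdac1* run is in exon 2 of 14 at chr4:129534677-129534726, minus strand, and the *Smarca5* run in exon 3 of 24 at chr8:80733750-80733799, minus strand, of GRCm38. A read from such a run cannot be assigned to 1 gene. Gm10093 had 0.393 to 2.05 CPM and Smarca5-ps at most 0.264 CPM in any library. Shared runs also made up 17.2% of *Rbbp4*, 11.2% of *Rbbp7* and 8.59% of *Baz1a*, and under 5% of each of the other remodelers apart from *Chd2* and *Srcap*.

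**Figure D3:**
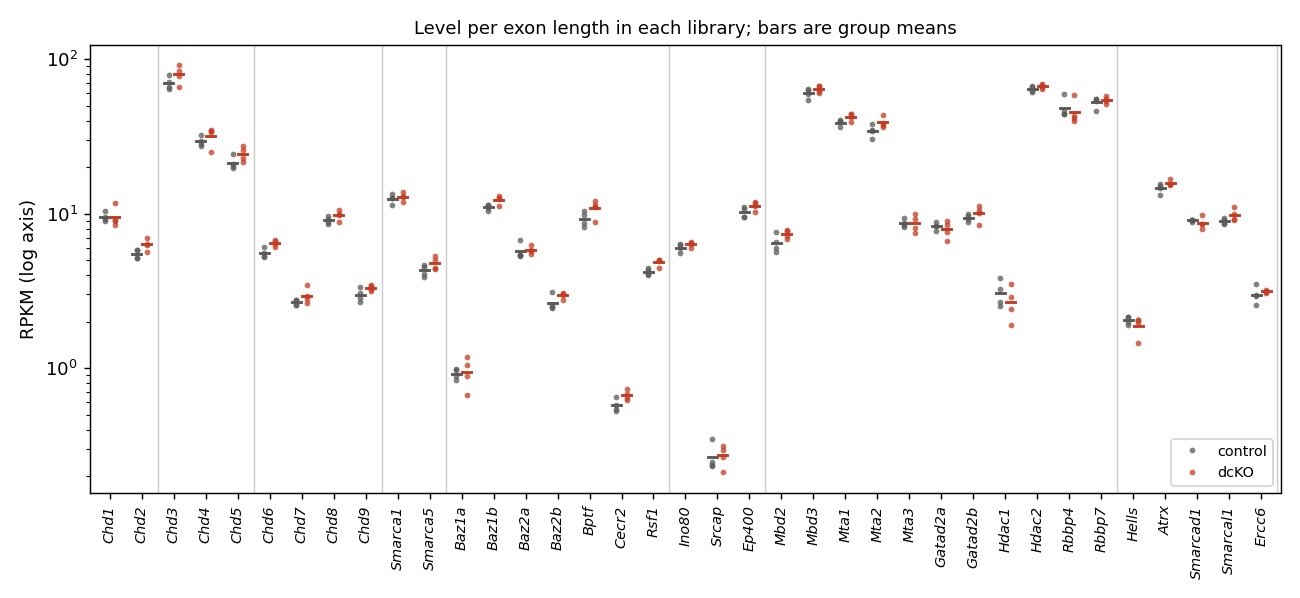
RPKM of the 37 remodelers on a log axis, with each library as a point (control grey, dcKO_Nex-Cre red) and the group mean as a short bar, ordered by role with vertical lines between roles. Chd3, Hdac2, Mbd3, Rbbp7 and Rbbp4 are the highest, and Srcap, Cecr2 and Baz1a are under 1 RPKM in the control mean.

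Of the other SNF2 type proteins, *Atrx*, the X-linked partner of DAXX in H3.3 deposition, was at 317, 337, 329 and 288 CPM in the control and at 367, 339, 339 and 331 CPM in the dcKO_Nex-Cre cortex. Its log2 fold change was 0.11 (adjusted p = 0.532, edgeR) and its groups overlapped through control replicate 2 and dcKO_Nex-Cre replicate 4. With the libraries split by *Xist* against *Ddx3y* as a covariate, no remodeler passed either, where 0.694% of all genes did. *Hells*, a remodeler of dividing cells that promotes DNA methylation, was at 15.3, 13.6, 14.4 and 15.5 CPM in the control and at 10.4, 14.8, 14.8 and 14.1 CPM in the dcKO_Nex-Cre cortex, where replicate 1 alone was low. *Smarcal1*, which restarts stalled replication forks, was at 52.0, 49.1, 53.7 and 49.5 CPM in the control and at 63.3, 57.0, 52.7 and 52.1 CPM in the dcKO_Nex-Cre cortex. Replicates 3 and 4 of the mutant lay within the control range of *Smarcal1*, and the log2 fold change was 0.14 (adjusted p = 0.468, edgeR). *Ercc6*, the Cockayne syndrome B protein, had 0.07. *Smarcad1* was at 121, 121, 122 and 118 CPM in the control and at 114, 115, 106 and 130.5 CPM in the dcKO_Nex-Cre cortex, so that 3 mutant libraries lay below all of the control and replicate 4 above all of it, and the log2 fold change was -0.05.

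Taken by library, the median of the remodelers relative to the control mean was 0.00 to 0.05 in control replicates 1 to 3 and -0.08 in control replicate 4 on the log2 scale. In the dcKO_Nex-Cre cortex it was 0.18, 0.13, 0.11 and 0.06 in replicates 1 to 4. Over all genes tested, this median stayed between -0.0022 and 0.0065 in every library. Of the 37 remodelers, 17 had their highest value in dcKO_Nex-Cre replicate 1 and 10 in replicate 2, and 16 had their lowest in control replicate 4. The positive values of the remodelers thus came most from those libraries and least from replicate 4.

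Results were repeated with each library left out in turn. Remodelers passed edgeR's test only in the fit without dcKO_Nex-Cre replicate 4, the mutant library with the lowest median of the remodelers. No remodeler passed when any other single library was left out, where only 0.108% to 0.527% of all genes did. As a choice made after seeing the data, results were also repeated without both dcKO_Nex-Cre replicate 4 and control replicate 2. Without replicate 4, *Chd6* (log2 fold change 0.25, adjusted p = 0.046) and *Rsf1* (0.25, adjusted p = 0.0423) passed edgeR's test, 2 of 37 remodelers, or 5.41%, where 7.73% of all genes passed, and 16 (43.2%) had an unadjusted p under 0.05, where 28.2% of all genes did. Without both libraries, 9 of 37 remodelers, or 24.3%, passed with higher values in the dcKO_Nex-Cre cortex, where 11% of all genes passed in either direction and 5.49% on the higher side. These were *Bptf* (log2 fold change 0.37, adjusted p = 0.0128), *Chd3* (0.34, 0.0187), *Chd6* (0.30, 0.0112), *Chd2* (0.29, 0.0221), *Rsf1* (0.26, 0.0211), *Chd9* (0.24, 0.0414), *Baz2b* (0.23, 0.0353), *Ep400* (0.23, 0.0487) and *Baz1b* (0.23, 0.0399). No subunit of NuRD other than *Chd3* and no ISWI ATPase was among them. The median log2 fold change of the remodelers was then 0.16, 31 of 37 values were above 0 (51.2% of all genes), 18 (48.6%) had an unadjusted p under 0.05 (28.4% of all genes), and 21 had groups that did not overlap (33.7% of all genes). The file names of all control libraries and of dcKO_Nex-Cre replicates 1 and 2 carry lane tag 2. Those of dcKO_Nex-Cre replicates 3 and 4 carry lane tag 8, which no control library carries. For these 2 libraries, lane tag and group cannot be told apart. Within lane tag 2, no remodeler passed the adjusted threshold, where 1.48% of all genes did. Smaller groups also separated more often over the whole table. The groups did not overlap for 9 remodelers without control replicate 2 (12.7% of all genes), for 14 without dcKO_Nex-Cre replicate 4 (27.2% of all genes) and for 19 within lane tag 2 (35.9% of all genes). Within that lane tag, 13 remodelers, or 35.1%, had an unadjusted p under 0.05, all higher, against 23.5% of all genes in either direction and 11.7% on the higher side. With the mitochondrial share as a covariate, again no remodeler passed, and 7 had an unadjusted p under 0.05, 18.9% against 18% of all genes, where 3.28% of all genes passed the adjusted threshold.

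**Figure D4:**
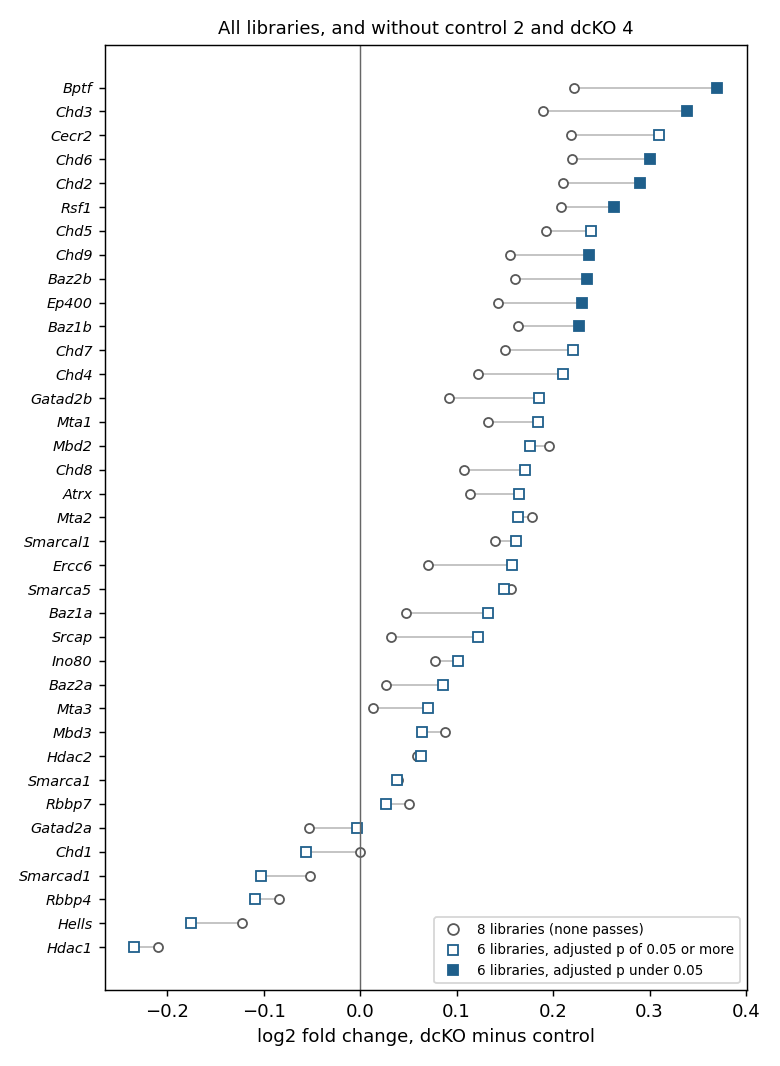
Log2 fold change of each remodeler, dcKO_Nex-Cre minus control, with all 8 libraries (open circles) and without control replicate 2 and dcKO_Nex-Cre replicate 4 (squares, filled where the adjusted p from edgeR is under 0.05). The 9 filled squares lie between 0.23 and 0.37, and no value with all 8 libraries passes.

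Most remodelers, 31 of 37, had an exon length over the median of all genes tested, a feature that their choice did not use. The exons of the 37 covered a median of 8744 bases against 4208 bases over all genes tested. Of the 37, 23 fell in the longest 2 of 10 length bins. The log2 fold changes of all genes rose with length, from a median of -0.13 in the shortest bin to 0.061 in the longest. In the longest bin the 17 remodelers had a median of 0.15, and in the other bins that held any it ran from 0.013 to 0.18. With each library's trend on length removed through offsets, 28 of 37 remodelers (75.7%) had a log2 fold change above 0 against 52.2% of all genes, and the median fell to 0.092. Without control replicate 2 and dcKO_Nex-Cre replicate 4 and with the length trend removed, 2 of 37 remodelers passed edgeR's test, *Chd3* (log2 fold change 0.28, adjusted p = 0.0361) and *Bptf* (0.27, adjusted p = 0.0351), which is 5.41% against 8.60% of all genes. With the trend removed in all 8 libraries, 4 remodelers (10.8%) had an unadjusted p under 0.05 in edgeR, against 13.8% of all genes. The source of the length trend and its part in the values of the remodelers were not tested.

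**Figure D5:**
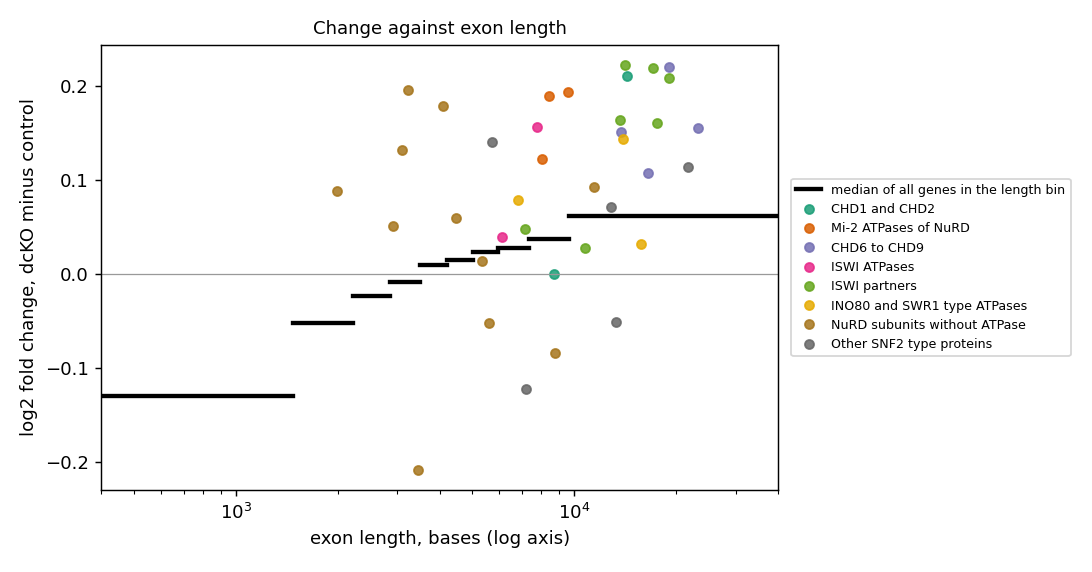
Log2 fold change, dcKO_Nex-Cre minus control, against exon length in bases on a log axis; points are the 37 remodelers by role and black bars are the median of all genes tested in each of 10 length bins of equal gene number. The bars rise from -0.13 to 0.061, and 17 remodelers lie in the last bin, whose right end is not drawn in full.

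The other subunits and partners of the same complexes also had more positive than negative values. All 56 were tested, none passed an adjusted p of 0.05 in edgeR, and 36 (64.3%) had a log2 fold change above 0 against 50.9% of all genes, with a median of 0.058 against 0.0043. *Bcl11a* and *Bcl11b* were counted here and not among the BAF subunits, with log2 fold changes of -0.19 and 0.067. The paper names the *Bcl11a* product, Ctip1 or BAF100a, as a variable BAF subunit. Of the 56 partners, 7 (12.5%) had an unadjusted p under 0.05 against 13.6% of all genes. Of these, 5 were higher. *Epc2*, a TIP60 subunit, was at 112, 104, 119 and 102 CPM in the control and at 133, 122, 120.2 and 122 CPM in the dcKO_Nex-Cre cortex, without overlap (log2 fold change 0.19, adjusted p = 0.294, edgeR). *Hmgxb4*, an HMG box protein found with NURF, had a log2 fold change of 0.17, also without overlap. *Daxx*, the ATRX partner, had 0.26, *Ruvbl1*, an AAA ATPase shared by INO80, SRCAP and TIP60, had 0.22, and *Sall1*, a zinc finger protein that recruits NuRD, had 0.22.

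The other 2 partners with an unadjusted p under 0.05 were lower. *H2afz*, a gene of the H2A.Z histone that the SWR1 type enzymes deposit, was at 13.8, 18.8, 10.4 and 10.7 CPM in the control and at 7.77, 9.58, 8.34 and 12.2 CPM in the dcKO_Nex-Cre cortex, with replicate 4 inside the control range (log2 fold change -0.51, adjusted p = 0.310, edgeR). *Cdk2ap1*, a small NuRD subunit, was at 10.4, 11.5, 10.8 and 11.3 CPM in the control and at 7.48, 8.35, 9.29 and 9.65 CPM in the dcKO_Nex-Cre cortex, without overlap (log2 fold change -0.35, adjusted p = 0.219, edgeR). Without control replicate 2 and dcKO_Nex-Cre replicate 4, 6 partners passed, *Daxx* (0.34), *Sall1* (0.32), *Trrap* (0.29) and *Zmynd8* (0.29) higher and *Actr6* (-0.23) and *Mcrs1* (-0.23) lower, 6 of 56 against 11% of all genes.

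Among the 26 BAF subunits listed, which leave out *Bcl11a* and *Bcl11b*, only the deleted *Smarcc1* and *Smarcc2* passed, where 0.884% of all genes did. Without dcKO_Nex-Cre replicate 4, 7 of 26 passed against 7.73% of all genes. With all libraries, 9 (34.6%) had an unadjusted p under 0.05 against 13.6% of all genes. The 6 of these on the higher side were *Smarce1*, *Arid2*, *Smarcd1*, *Arid1a*, *Ss18* and *Arid1b*, with log2 fold changes from 0.19 for *Ss18* to 0.29 for *Arid1a*. *Dpf3*, with -0.36, was the third on the lower side. The log2 fold changes of the CHD genes and ISWI partners reached 0.22, and a difference between the lists was not tested.

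Cell type markers were read beside these values. All 10 excitatory neuron markers were detected in the cortex, and their summed level was 1792 to 2069 CPM in the control and 1497 to 1742 CPM in the dcKO_Nex-Cre cortex. In that list, 2 of 10 genes had positive values, 3 had an unadjusted p under 0.05 on the lower side, and *Neurod6*, the Nex gene that drives the Cre, was the only one that passed the adjusted threshold. Without *Neurod6*, which was at 569.9 to 750 CPM in the control and 327 to 437 CPM in the mutant, the sums overlapped, at 1207 to 1319 CPM and 1060 to 1330 CPM, with dcKO_Nex-Cre replicate 1 the highest of the 8 libraries. All 5 oligodendrocyte precursor markers had positive values, 4 with an unadjusted p under 0.05, and *Cspg4* passed the adjusted threshold (log2 fold change 0.56, adjusted p = 0.0355, edgeR). Their summed levels were 173 to 252 CPM in the control and 252 to 308 CPM in the dcKO_Nex-Cre cortex. Of 12 markers of cycling progenitors, 10 had positive values and 1 an unadjusted p under 0.05, with summed levels of 315 to 401 CPM and 350 to 507 CPM, highest in dcKO_Nex-Cre replicates 2 and 3. The 8 radial glia markers summed to 2368 to 2741 CPM in the control and 1959 to 2399 CPM in the mutant, with 4 of 8 values positive. Without *Fabp7* alone these sums were 764 to 1040 CPM and 788 to 1162 CPM. All 5 endothelial markers had positive values, none with an unadjusted p under 0.05, with a median log2 fold change of 0.28 and sums of 79.7 to 121 CPM and 108 to 137 CPM. Choroid plexus markers, chiefly *Ttr*, varied most, from 15.98 to 1328 CPM in the control and from 3.65 to 552 CPM in the mutant, and 1 of these 5 genes was at 0 in a library. The sums of the other lists overlapped between the groups, at 783 to 916 and 689 to 818 CPM for interneurons, 341 to 495 and 374 to 633 CPM for astrocytes, 72.2 to 84.6 and 64.8 to 91.0 CPM for microglia, 17.0 to 35.6 and 10.3 to 70.8 CPM for meninges and 82.6 to 138 and 81.8 to 185 CPM for erythrocytes. Of the interneuron, astrocyte and microglia markers, none passed the adjusted threshold. At an unadjusted p under 0.05 in edgeR, *Sst* (log2 fold change -0.84, adjusted p = 0.0645) and *P2ry12* (-0.57, adjusted p = 0.0596) were lower. *Aldoc* (0.37), *Gfap* (0.34) and *C1qa* (0.31) were higher. Apart from the choroid plexus gene, no marker was at 0 in any library. The part of these cell types in the values of the remodelers was not tested.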

How the data were processed

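For each sample the authors deposited raw read counts per Ensembl gene, which the submitters' notes place on mm10, and the aligner, counting program and use of strand are not given in the sources used here. Libraries had been made from total RNA with an Illumina TruSeq kit. Of 48709 genes, 48349 were matched to GENCODE M21 on GRCm38 for symbols, positions and exon lengths. The main test was that of edgeR 4.0.16 under R 4.3.3 (filterByExpr, TMM, robust quasi-likelihood F test, two-sided, no covariates), and p-values were adjusted by Benjamini-Hochberg over the 16287 genes tested. DESeq2 1.42.0, limma 3.58.1 (voom), other filters and scalings, a replicate block, length and sex terms and leaving out each library were alternatives. The tests were checked on simulated counts. Single values and ratios were compared by exact permutation over 70 regroupings. No libraries of a group were copies. Shared sequence was counted as runs of 50 bases of GENCODE transcripts. Motif II was located in the translated coding sequence of 1 transcript per gene. All 37 remodelers are named. Values in every library were given for those with an unadjusted p under 0.05 or no overlap, for the largest and smallest changes of each role, and for others chosen after their values were seen. The members and lists were chosen with earlier results of these data known. Precision is limited by 4 libraries per group.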

Additional observations from a re-analysis of the deposited data

Results flagged for a closer look

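In each group of 4 libraries, the highest and lowest value of each named gene was compared with the rest by Dixon's criterion, which marks a library whose distance to its neighbour takes up most of the group's range. Of 78 groups, 8 were marked, where chance gives about 1 in 20, or 3.9. Control replicate 2 was high for *Baz2a* at 72.6 CPM (other control libraries 56.7 to 58.3), for *Baz2b* at 55.0 CPM (others 43.1 to 44.8), for *Srcap* at 5.53 CPM (others 3.66 to 3.92) and for *Rbbp4* at 519 CPM (others 386 to 403). In dcKO_Nex-Cre replicate 4, *Rbbp4* was high at 513 CPM (others 348 to 375), *Chd4* was low at 200.7 CPM (others 273 to 279) and *Rsf1* was low at 85.3 CPM (others 94.0 to 95.6). *Hells* was low in dcKO_Nex-Cre replicate 1 at 10.4 CPM (others 14.1 to 14.8). Thus 7 of the 8 marked values lie in the 2 libraries with over 6% mitochondrial counts, and the part of that share in the values was not tested.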

How the results depend on the processing

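Of all genes, 144 passed with edgeR. The count was 494 with DESeq2's Wald test, 259 without a filter on low counts, 248 within lane tag 2, 535 with the mitochondrial share as a covariate and 1794 without control replicate 2 and dcKO_Nex-Cre replicate 4, or 1401 when the length trend was also removed. With the replicate block it was 54, and 68 with the block and the length trend removed. Whether same-numbered libraries share more than a number is not known. Their deviations from the group means correlated at 0.13, 0.018, 0.13 and -0.14, and 0 of 4 control libraries matched their own number best. With 4 libraries per group, these values cannot exclude a pairing. Leaving out each library in turn gave 18 to 1278 genes, the highest without dcKO_Nex-Cre replicate 4.

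The count of remodelers that passed was 0 to 2 when 1 library was left out (2 without dcKO_Nex-Cre replicate 4), 9 without control replicate 2 and dcKO_Nex-Cre replicate 4, 2 when the length trend was removed as well, and 0 in every other fit. At an unadjusted p under 0.05, the 4 remodelers became 13 within lane tag 2, 7 with the mitochondrial covariate, 18 without both libraries (10 with the length trend removed), 1 with the replicate block and the length trend removed, and 2 to 16 when 1 library was left out (2 without control replicate 4 or dcKO_Nex-Cre replicate 1, 11 without control replicate 2, 16 without dcKO_Nex-Cre replicate 4). Remodelers whose groups did not overlap went from 1 (8% of all genes) to 2 with DESeq2 size factors (8.04%), 19 within lane tag 2 (35.9%), 21 without both libraries (33.7%) and 1 to 14 when 1 library was left out (9 without control replicate 2, 12.7%, and 14 without dcKO_Nex-Cre replicate 4, 27.2%; all 8 fits 9.71% to 27.2% of all genes). Partners passing went from 0 to 6 without both libraries, 5 with the length trend also removed and 0 to 2 when 1 library was left out. BAF subunits passing went from 2 to 1 with the replicate block, 7 without both libraries (7 with the length trend removed) and 1 to 7 when 1 library was left out. *Smarcc1* lost its call in 8 fits. Paralog ratios with a permutation p under 0.05 went from 1 to 0 to 2 when 1 library was left out, and were 0 within lane tag 2, with the replicate block as pairs and without both libraries, where the smallest p is 0.0667, 0.125 and 0.1 and the count says nothing about stability.

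Of 819 alternative log2 fold changes of the remodelers and the deleted genes, 762 kept their direction and call, 13 gained and 8 lost a call, and 36 changed sign, in 8 genes with values near 0. *Chd1* was at 0.0016 with DESeq2 size factors and with DESeq2's test, 0.0092 without a filter, 0.0011 with the sex covariate, 0.066 with the mitochondrial covariate and -0.10 to 0.055 with 1 library left out. With the length trend removed, *Baz2a* was at -0.0098, *Srcap* at -0.011 and *Mta3* at -0.0026, and with the replicate block too at -0.0078, -0.015 and -0.0083, with *Baz1a* at -0.00014. With the mitochondrial covariate, *Smarca1* was at -0.0066, *Baz1a* at -0.055, *Mta3* at -0.045 and *Rbbp4* at 0.025. *Gatad2a* was at 0.085 within lane tag 2. With 1 library left out, *Baz1a* ran from -0.071 to 0.18, *Baz2a* from -0.0050 to 0.13, *Srcap* from -0.031 to 0.19, *Mta3* from -0.060 to 0.084, *Gatad2a* from -0.12 to 0.025 and *Rbbp4* from -0.22 to 0.037. The cause was not tested. *Hdac1*, *Srcap* and *Baz1a*, with group means under 11 CPM, had the widest intervals, and no 95% interval lay within 0.2 of 0.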
